A study of Rattus norvegicus with 8 samples.

Results

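The striatal projection neuron transcription factors examined here are 8 genes, Bcl11b, Meis2, Foxp1, Foxp2, Rarb, Isl1, Ebf1 and Six3, out of 14217 genes named by a single symbol, read by 17 probe sets out of 31099 on the array. A probe set, the group of short oligonucleotides that measures a single transcript end on an Affymetrix Rat Genome 230 2.0 array, was taken where the platform annotation gave exactly 1 of these symbols, and 3 further probe sets annotated to both Ebf3 and Ebf1 were left out. The samples are brain tissue of adult male Wistar rats taken 48 hours after a stereotaxic injection into the striatum, with 4 arrays in each of 2 groups. In the first group 5 µl of inactivated baculovirus vectors, 50000000 particles of an insect virus used to carry genes into mammalian cells, were injected after inactivation by ultraviolet light of 254 nm for 1 hour. In the second group the injection was 5 µl of phosphate-buffered saline (PBS). The rats' age is not given in the labels, and the transgene of the vector is not named there. The design text speaks of 7 rats with PBS in the opposite striatum, so that arrays may share animals, and the p-values below measure the spread between these arrays. The tissue is labelled brain, and all 25 of the projection neuron effector genes found on the array under a single symbol, including Ppp1r1b, Drd1, Drd2, Penk and Tac1, lay above the level used for testing. So did 10539 of the 14217 genes, and all 4 thalamic markers listed, so that this count does not show which part of the brain was taken.

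Medium spiny projection neurons make up most of the cells of the striatum, use GABA, and send their axons along a direct pathway, marked by the dopamine receptor Drd1, or an indirect pathway, marked by Drd2. Bcl11b (Ctip2), Foxp1, Meis2 and Rarb are expressed in projection neurons of both pathways, Isl1 and Ebf1 are needed in direct pathway neurons as these mature, and Six3 acts in the formation of indirect pathway neurons. Several are also found in other cells: Bcl11b also marks deep-layer cortical neurons, Foxp2 is found in cortical layer 6 and thalamus, Isl1 in cholinergic interneurons and Ebf1 in pericytes.

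No probe set of these genes passed the test for a difference between the groups. Intensities were compared as log2(intensity + 16), fold changes run inactivated baculovirus over PBS, and limma p-values were adjusted over all 18625 probe sets above a level filter, an intensity of about 26.0. Of the 17 probe sets, 12 for 7 genes were above the filter, and 0 of these had an adjusted p under 0.05, where 0% of all tested probe sets did. Before adjustment, 2 of the 12 were lower after inactivated baculovirus at p under 0.05, against 4.22% of all tested. In 0 of the 12 did all baculovirus arrays lie below all PBS arrays, against 2.31% of all tested. A lower mean after inactivated baculovirus was seen for 8 of the 12, against 46.3% of all tested. The median log2 fold change was -0.05 over the 12 and 0.01 over all tested probe sets. Because the tissue is a mixture of cells, fewer cells of a type and less RNA per cell cannot be told apart in any of these values.

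**Figure D1:**
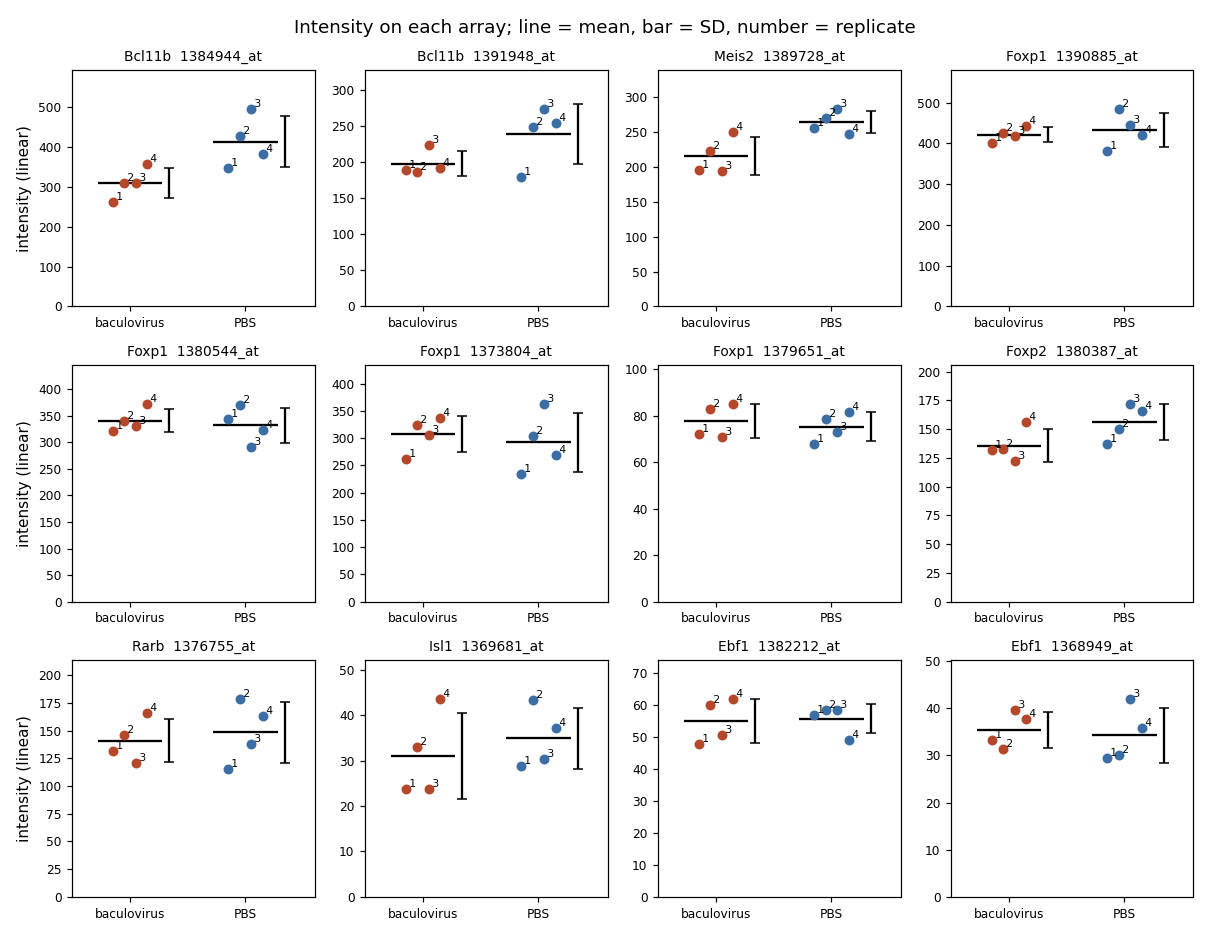
Linear intensity of the 12 tested probe sets on each array, with 4 inactivated baculovirus arrays on the left of each panel and 4 PBS arrays on the right; points carry the replicate number, the line is the group mean and the bar its SD. Bcl11b 1384944_at, at 263 to 357 after inactivated baculovirus and 348 to 495 after PBS, is among the panels where the groups stand farthest apart, and every panel shows overlapping groups.

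Bcl11b, a zinc finger repressor required for the differentiation of projection neurons, was read by 3 probe sets. The probe set 1384944_at measured 263, 310, 310 and 357 on the 4 inactivated baculovirus arrays, against 348, 428, 495 and 381 on the 4 PBS arrays. The groups overlapped through baculovirus replicate 4 and PBS replicate 1 alone. Its mean was 23.8% lower after inactivated baculovirus on the fitted scale, with a log2 fold change of -0.39 (95% interval -0.63 to -0.15, limma adjusted p = 0.686).

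The second Bcl11b probe set, 1391948_at, measured 190, 186, 224 and 192 after inactivated baculovirus, against 179, 249, 274 and 255 after PBS. Here PBS replicate 1 was the lowest of all 8 arrays, and the other PBS arrays stood above every baculovirus array. Its log2 fold change of -0.24 had a 95% interval from -0.49 to 0.01 (limma adjusted p = 0.737), and the fold change was -0.37 without PBS replicate 1. The third, 1378520_at, lay below the filter at 1.49 to 14.1 after inactivated baculovirus and 2.19 to 11.1 after PBS, so that its higher mean after inactivated baculovirus, 7.38 ± 5.75 against 6.87 ± 4.05 (SD, n = 4 each), is a difference near the floor of the array. The probe sets of Bcl11b that carried signal therefore both had lower means, and the difference between their log2 fold changes, -0.15 ± 0.13 (SE), did not pass (limma adjusted p = 0.867 over 4365 pairs).

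Meis2, a homeobox factor of the TALE class that binds DNA with Pbx partners, was read by 1 probe set. It measured 196, 223, 194 and 251 after inactivated baculovirus, against 255, 270, 283 and 248 after PBS. Only baculovirus replicate 4 reached into the PBS range, just above PBS replicate 4. It stood at -0.28 in log2 fold change (95% interval from -0.48 to -0.08, limma adjusted p = 0.686). With each array left out in turn it lay between -0.35 and -0.23.

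Foxp2, a forkhead repressor best known for its part in vocal learning and speech, was read by 1 probe set. It measured 132, 133, 122 and 156 after inactivated baculovirus, against 137, 150, 172 and 166 after PBS. Baculovirus replicate 4 again stood with the PBS arrays, while the other 3 lay below all of them. Its log2 fold change of -0.18 had a 95% interval from -0.39 to 0.03 (limma adjusted p = 0.755).

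Foxp1, the close relative of Foxp2 that is expressed widely in projection neurons, was read by 5 probe sets, of which 4 were tested, and these showed no common direction. The brightest, 1390885_at, measured 400, 425, 417 and 444 after inactivated baculovirus, against 382, 484, 445 and 420 after PBS, a log2 fold change of -0.03 (95% interval -0.21 to 0.14). The other tested probe sets had slightly higher means after inactivated baculovirus, at 0.04 ± 0.08 for 1380544_at, 0.08 ± 0.12 for 1373804_at and 0.04 ± 0.10 for 1379651_at (log2 fold change ± SE, limma adjusted p between 0.911 and 0.959 for the 4). The PBS arrays alone spanned 234 to 362 for 1373804_at, wider than the baculovirus span of 263 to 338, and PBS replicate 3 was the highest of the 8 arrays for this probe set but the lowest for 1380544_at, at 291. Averaged over the 4 probe sets, the log2 fold change of Foxp1 was 0.03 ± 0.08 (SE), against -0.03 when the brightest stood for the gene. The fifth probe set, 1394691_at, lay below the filter at 14.1 to 21.6 after inactivated baculovirus and 6.18 to 19.3 after PBS.

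**Figure D2:**
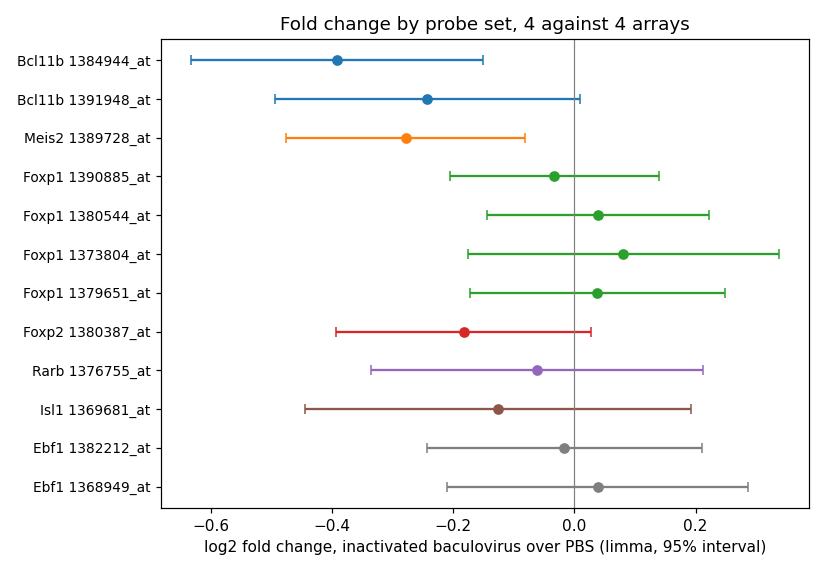
Log2 fold change of each tested probe set, inactivated baculovirus over PBS, with the limma 95% interval; colours mark genes. The intervals of Bcl11b 1384944_at and Meis2 lie below 0 before adjustment, those of the other 10 cover 0, and the 4 Foxp1 probe sets lie on both sides of 0, between -0.03 and 0.08.

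Rarb encodes the retinoic acid receptor beta, a nuclear receptor that turns on genes when bound to retinoic acid. It measured 131, 146, 120 and 166 after inactivated baculovirus, against 115, 178, 138 and 163 after PBS. The lowest and the highest of the 8 values were both PBS arrays, replicates 1 and 2. Its log2 fold change of -0.06 had a 95% interval from -0.34 to 0.21 (limma adjusted p = 0.942).

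Of the factors of the direct pathway, Isl1, a LIM homeobox factor, was dim. Its probe set 1369681_at measured 23.8, 33.0, 23.7 and 43.4 after inactivated baculovirus, against 28.8, 43.3, 30.3 and 37.1 after PBS, with overlapping groups. The log2 fold change of -0.13 (95% interval -0.44 to 0.19, limma adjusted p = 0.880) became -0.25 without baculovirus replicate 4 and -0.05 without PBS replicate 2. The other Isl1 probe set, 1396895_at, was below the filter, at 4.24 to 16.6 after inactivated baculovirus and 10.6 to 11.6 after PBS.

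Ebf1, a helix-loop-helix factor of the early B cell factor family, was read by 3 probe sets with 1 symbol. The brightest, 1382212_at, measured 47.7, 60.03, 50.7 and 61.8 after inactivated baculovirus, against 56.9, 58.5, 58.6 and 49.0 after PBS, and the second, 1368949_at, measured 33.3, 31.3, 39.7 and 37.6 after inactivated baculovirus, against 29.4, 30.0, 41.9 and 35.9 after PBS. The groups overlapped in both, with log2 fold changes of -0.02 ± 0.10 and 0.04 ± 0.11 (SE, limma adjusted p = 0.988 and 0.965). PBS replicate 4 was at the low end for the first probe set and not for the second. The third, 1392619_at, was below the filter at 19.2 to 25.3 after inactivated baculovirus and 17.3 to 29.2 after PBS.

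Six3, the homeobox factor of the indirect pathway lineage, lay at the floor of the array. Its 1 probe set measured 4.09, 4.49, 2.16 and 5.69 after inactivated baculovirus, against 6.32, 1.81, 1.28 and 9.91 after PBS, and was not tested. Such values give no information on whether Six3 differed.

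Agreement between probe sets of a gene could be examined for 3 genes with 8 pairs of tested probe sets. The log2 fold changes of a pair had the same sign in 4 of these 8 pairs, namely the pair of Bcl11b and 3 of the 6 pairs of Foxp1, against 59.3% of the 4365 pairs of all 2582 genes with at least 2 tested probe sets. The difference between the fold changes of a pair passed an adjusted p of 0.05 in limma for 0 of the 8 pairs, as for 0% of all pairs, and 228 of all pairs had an unadjusted p under 0.05. For Foxp1 these differences ran from -0.11 ± 0.12 to 0.04 ± 0.13 on the log2 scale (SE). For Ebf1 the difference was -0.05 ± 0.13. As a description over the 8 arrays, the log2 levels of the Bcl11b probe sets correlated at Pearson's r = 0.75 (Spearman's rho 0.69), those of Foxp1 at r between -0.11 and 0.70 (rho -0.02 to 0.71), and those of Ebf1 at r = -0.11 (rho 0.10). The median r over all pairs was 0.26, with the middle 50% of pairs between -0.09 and 0.59. Probe sets of a pair share the array and its scaling, and the Foxp1 probe sets 1380544_at and 1373804_at, with r = -0.11, did not follow each other across arrays.

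**Figure D3:**
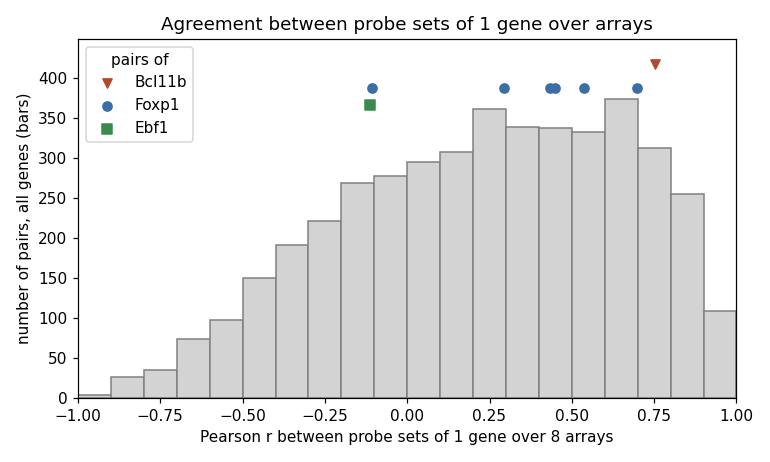
Pearson's r over the 8 arrays between the log2 levels of probe sets of a gene; grey bars count the 4365 pairs of all genes in steps of 0.1, and the symbols above place the 8 pairs of Bcl11b, Foxp1 and Ebf1. The Bcl11b pair stands at 0.75, the Foxp1 pairs spread from -0.11 to 0.70, and the median of all pairs is 0.26.

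The level of these genes varied between the arrays of each group. The mean level over the 7 tested genes, each read by its brightest probe set and set to a mean of 0 over the 8 arrays, was -0.21, -0.04, -0.19 and 0.12 after inactivated baculovirus, against -0.07, 0.18, 0.13 and 0.07 after PBS (log2 scale). Baculovirus replicates 2 and 4 stood within the PBS range, and PBS replicates 1 and 4 within the baculovirus range. The difference of the group means was -0.16, and it lay between -0.22 and -0.11 with each array left out. All 7 brightest probe sets had a lower mean after inactivated baculovirus, and choosing them matters: with all tested probe sets the count was 8 of 12. That count became 11 without PBS replicate 1 and 6 without PBS replicate 2.

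**Figure D4:**
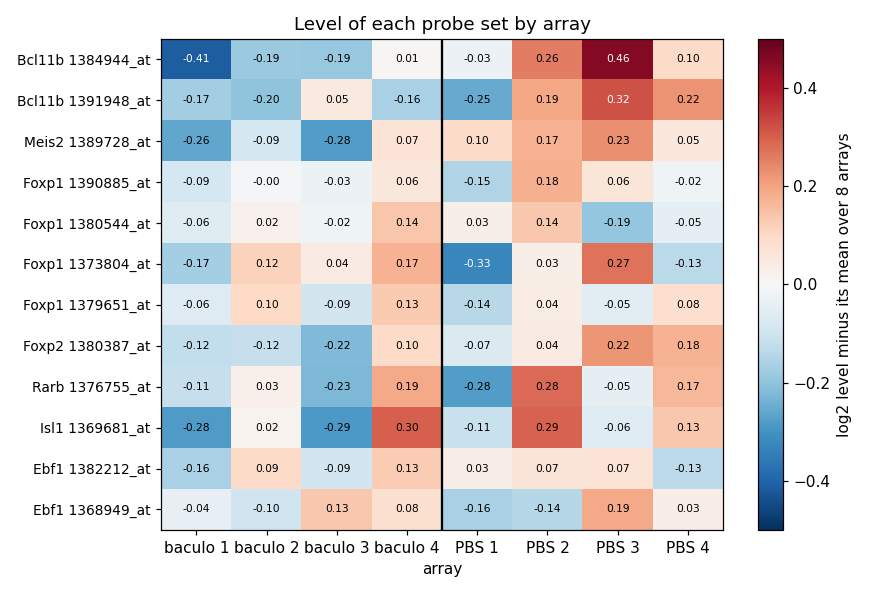
Log2 level of each tested probe set on each array, minus its own mean over the 8 arrays; red is above and blue below that mean, and the vertical line parts the 4 inactivated baculovirus arrays on the left from the 4 PBS arrays on the right. Bcl11b, Meis2 and Foxp2 are highest on PBS replicate 3, while Rarb is highest on PBS replicate 2 and Isl1 on baculovirus replicate 4.

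As a description over the 8 arrays, the genes went together in different combinations. Bcl11b 1384944_at correlated with Meis2 at r = 0.90 and with Foxp2 at r = 0.81, and Meis2 with Foxp2 at r = 0.82. The other tested Bcl11b probe set, 1391948_at, correlated less with both, at r = 0.45 with Meis2 and 0.63 with Foxp2. These 3 genes were all highest on PBS replicate 3, and without that array their log2 fold changes were -0.30 for Bcl11b 1384944_at, -0.25 for Meis2 and -0.14 for Foxp2. Rarb correlated with Isl1 at r = 0.90, with Foxp2 at 0.58, and with Bcl11b 1384944_at and Meis2 at 0.41 and 0.45. With the 4 tested Foxp1 probe sets Rarb correlated unevenly, at r = 0.85 for 1379651_at, 0.80 for 1390885_at, 0.45 for 1380544_at and 0.39 for 1373804_at. These values share the arrays and the difference between groups, and they rest on 8 points. The genes outside the set whose levels were most like its mean level, among 10532 searched, were Slc26a6, an anion exchanger (r = 0.96), Rpap3, a co-chaperone of RNA polymerase assembly (r = 0.96), Ccdc85c (r = 0.94), Shisa8 (r = 0.92) and Becn1, an autophagy protein (r = 0.92). They are the top of a large search over only 8 arrays. Whether r this high would arise by chance in such a search was not tested.

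The promoters of Rarb, Foxp1 and Isl1 were chosen for display after a motif search, Rarb as a textbook target of retinoic acid receptors and the other two because each holds a motif of the forkhead or the Ebf1 family. Each runs from 250 bases before to 50 bases after a start listed for the gene, 5′ to 3′ on the gene's strand, from RefSeq on build GRCr8. The start used for Isl1 is at the 5′ end of the gene. Those of Rarb and Foxp1 lie inside the gene's span, chr15:10837252-11482037 and chr4:133117346-133808647, far from its 5′ end. Positions below count from the start used. The table held 5 of the 8 genes, without Bcl11b, Meis2 and Foxp2. Capitals mark motif matches.
Rarb, chr15:11336142-11336441, plus strand: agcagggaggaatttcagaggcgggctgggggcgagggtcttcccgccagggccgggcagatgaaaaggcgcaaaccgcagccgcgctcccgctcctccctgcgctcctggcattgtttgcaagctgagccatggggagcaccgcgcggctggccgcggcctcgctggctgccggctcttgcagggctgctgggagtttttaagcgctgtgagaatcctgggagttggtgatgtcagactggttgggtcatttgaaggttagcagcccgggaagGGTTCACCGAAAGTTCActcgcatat
Foxp1, chr4:133353231-133353530, minus strand: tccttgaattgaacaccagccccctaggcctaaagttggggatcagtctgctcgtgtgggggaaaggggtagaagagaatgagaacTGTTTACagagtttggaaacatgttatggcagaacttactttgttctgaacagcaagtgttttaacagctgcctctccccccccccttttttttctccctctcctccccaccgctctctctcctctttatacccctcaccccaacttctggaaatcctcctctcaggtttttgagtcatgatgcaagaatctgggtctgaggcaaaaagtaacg
Isl1, chr2:49823393-49823692, minus strand: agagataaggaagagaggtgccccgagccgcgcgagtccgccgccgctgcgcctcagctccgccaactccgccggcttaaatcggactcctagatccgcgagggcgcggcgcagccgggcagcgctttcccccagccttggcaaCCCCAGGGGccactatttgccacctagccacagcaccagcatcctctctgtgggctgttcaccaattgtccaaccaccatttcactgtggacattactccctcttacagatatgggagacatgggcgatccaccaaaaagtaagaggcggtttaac

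In the Rarb window the capitals mark a retinoic acid response element of the direct repeat type, with 2 half-sites 5 bases apart, which begins at base 25 after the start. Such an element was present in 0.382% of 33469 promoters of the same length, searched on both strands. In the Foxp1 window they mark the forkhead core TGTTTAC at base -164, which 3.78% of promoters held on either strand. In the Isl1 window they mark a pair of overlapping matches to the EBF core CCCNNGGG, the palindromic motif of the Ebf1 family, from base -106, which 12.4% of promoters held. The TALE homeobox core TGACAG, present in 19.0% of promoters, and the single retinoic acid receptor half-site AGGTCA, present in 16.2%, were in none of these 3 windows. Of the promoters not shown, that of Six3 held 1 match among these motifs, the TALE core at base -148, and that of Ebf1 held 0. A match is a run of letters and does not show that a factor was bound.

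Relatives and partners of these factors were followed through a list of 25 genes, of which 19 had a probe set with a single symbol and 10 were tested. Of the 10, 5 had a lower and 5 a higher mean after inactivated baculovirus, 0 passed, and the median log2 fold change was 0.02. Meis1, the paralog of Meis2, came first by p with 120, 104, 107 and 117 after inactivated baculovirus, against 128, 129, 138 and 130 after PBS. All 4 baculovirus arrays lay below all PBS arrays, as in 2.31% of all tested probe sets, and the log2 fold change was -0.21 ± 0.08 (SE, limma adjusted p = 0.714). The Pbx factors, which bind DNA together with Meis proteins, stood at 0.16 ± 0.12 for Pbx2 and -0.12 ± 0.10 for Pbx3. Rxrg and Rxrb, retinoid X receptors that pair with Rarb, stood at -0.08 ± 0.12 and 0.07 ± 0.08 (log2 fold change ± SE).

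Other regulators of the striatal lineage, 15 tested of 25 listed, had 7 lower and 8 higher means and 0 passed, with a median log2 fold change of 0.01. The zinc finger gene Zfp521 measured 78.8, 72.1, 76.7 and 74.2 after inactivated baculovirus, against 81.5, 95.7, 91.0 and 86.0 after PBS, without overlap, at -0.19 ± 0.09 (log2 fold change ± SE, limma adjusted p = 0.737). It was the 1 gene of the 15 with all baculovirus arrays below all PBS arrays, against 2.31% of all tested probe sets. Tshz1, which guides the survival and placing of projection neurons, stood at -0.17 ± 0.09 and Mef2c, a regulator of synapse number, at -0.12 ± 0.08. Retinoid handling genes, which make, bind or break down retinoic acid, had 3 lower and 7 higher means among 10 tested of 12 listed, with 0 passed and a median of 0.05. Rdh10, which makes retinaldehyde, stood at -0.13 ± 0.09, Cyp26a1, which degrades retinoic acid, at 0.16 ± 0.12, and Dhrs3, which reduces retinaldehyde, at 0.11 ± 0.09 (log2 fold change ± SE).

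Among the effector genes through which projection neurons signal, 17 of 25 tested had a lower mean and 8 a higher one, 0 passed, and the median log2 fold change was -0.03. Gad1, a GABA-synthesizing enzyme, measured 1027, 1042, 1050 and 1091 after inactivated baculovirus, against 1134, 1109, 1245 and 1332 after PBS, without overlap (log2 fold change -0.19 ± 0.07 SE, limma adjusted p = 0.688). It was the 1 gene of the 25 with all baculovirus arrays below all PBS arrays, against 2.31% of all tested probe sets. Pdyn, the opioid precursor of direct pathway neurons, stood at -0.30 ± 0.12 and Slc32a1, the vesicular GABA transporter, at 0.17 ± 0.11. The pathway receptors stood at -0.18 ± 0.13 for Drd1 and -0.02 ± 0.15 for Drd2. The level of the list was -0.15, -0.01, -0.11 and 0.19 after inactivated baculovirus, against -0.25, 0.11, -0.02 and 0.23 after PBS, so that PBS replicate 1 was its lowest array and PBS replicate 4 its highest. Over the 8 arrays it went with the level of the 7 transcription factors at r = 0.72 (rho 0.64), as a description. This was not particular to the effector genes. The list of relatives and partners stood at r = 0.68, that of other lineage regulators at 0.65 and that of retinoid handling genes at -0.04.

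Markers of other cells and a measure of RNA quality varied across the same arrays. The level of 10 tested cortical glutamatergic markers of 12 listed lay between -0.01 and 0.15 after inactivated baculovirus and -0.09 and 0.02 after PBS, with 5 lower and 5 higher means. Neurod1, a helix-loop-helix factor of glutamatergic neurons, stood at 0.18 ± 0.10 (log2 fold change ± SE, limma adjusted p = 0.755), with all baculovirus arrays above all PBS arrays, as in 1.55% of all tested probe sets. Microglial markers, 8 tested of 8, lay between -0.18 and 0.23 after inactivated baculovirus and -0.20 and 0.22 after PBS, with 7 higher means. The fractalkine receptor gene Cx3cr1 was the 1 gene of that list without overlap, higher after inactivated baculovirus at 0.23 ± 0.11 (log2 fold change ± SE, limma adjusted p = 0.737). The same 1.55% of all tested probe sets is the share to set beside it. P2ry12, the 1 gene of that list with a lower mean, stood at -0.26 ± 0.13 with overlapping groups (log2 fold change ± SE, limma adjusted p = 0.742). Choroid plexus markers, 4 tested of 9, lay between 0.01 and 0.57 after inactivated baculovirus, against 0.00 and 0.34 on the PBS arrays other than replicate 4, which stood at -1.58. Of the cholinergic interneuron markers, cells that also express Isl1, only Slc5a7 was tested of 6 listed, while Chat and Slc18a3 were below the filter. Slc5a7 was dim and stood at -0.33 ± 0.13 with overlapping groups (log2 fold change ± SE, limma adjusted p = 0.714). PBS replicate 4 was its highest array at 70.3, against 39.6 to 52.2 on the other PBS arrays.

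Pericyte and endothelial markers, cells that also express Ebf1, had 4 lower and 7 higher means among 11 tested of 12, at -0.03 to 0.09 after inactivated baculovirus and -0.12 to 0.04 after PBS. Vtn, the vitronectin gene, was the 1 gene of that list without overlap, higher after inactivated baculovirus at 0.23 ± 0.10 (log2 fold change ± SE, limma adjusted p = 0.721). All baculovirus arrays lay above all PBS arrays in 1.55% of all tested probe sets. Markers of other interneurons had 1 lower and 6 higher means among 7 tested of 9, at -0.03 to 0.11 after inactivated baculovirus and -0.10 to 0.08 after PBS. Astrocyte markers had 4 lower and 3 higher means among 7, at -0.04 to 0.02 after inactivated baculovirus and -0.10 to 0.05 after PBS. Oligodendrocyte markers had 3 lower and 3 higher means among 6 tested of 7, at -0.05 to 0.05 after inactivated baculovirus and -0.06 to 0.06 after PBS. Thalamic markers had 3 lower and 1 higher mean among 4. Their level was 0.08, 0.20, -0.21 and -0.26 after inactivated baculovirus, against 0.35, 0.32, -0.19 and -0.29 after PBS. In both groups replicates 1 and 2 stood above replicates 3 and 4, and the source of this pattern was not tested. For beta-actin, the log2 level of the 3′ control probe set minus that of the 5′ one, a measure of RNA quality and labelling, was 0.36, 0.51, 0.40 and 0.72 after inactivated baculovirus, against 0.57, 0.62, 0.46 and 0.41 after PBS. Baculovirus replicate 4, the baculovirus array with the highest level of the 7 transcription factors, had the highest of these differences, and replicates 1 and 3, with the lowest levels, had the lowest. The PBS arrays did not show this order throughout. PBS replicate 2 was the highest PBS array in both, but PBS replicate 1, with the lowest level, had a larger difference than PBS replicates 3 and 4. The same difference for GAPDH was -0.11, -0.04, -0.10 and -0.05 after inactivated baculovirus, against -0.04, -0.05, -0.08 and -0.08 after PBS. There baculovirus replicate 4 was not the highest array, and baculovirus replicates 1 and 3 were again the lowest. The group means of the 15 list levels and control measures were compared by an exact permutation test, two-sided, which cannot give a p below 0.0286 here. The lowest exact p was 0.0857, for Slc5a7, and after Benjamini-Hochberg adjustment over the 15 every p was 1. Over the 8 arrays the level and the beta-actin difference went together at r = 0.62 (rho 0.67), as a description, and the level and the GAPDH difference at r = 0.48 (rho 0.38). The part of RNA quality and of tissue composition in the values of the transcription factors was not tested.

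**Figure D5:**
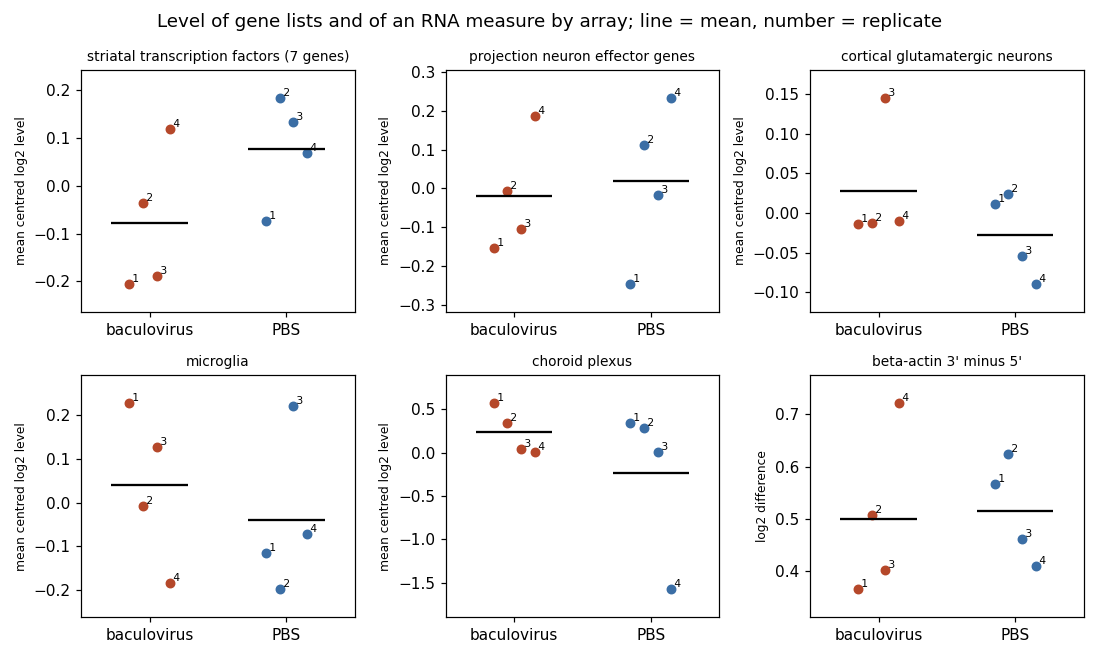
Level of 5 gene lists on each array (mean over the genes of the centred log2 level) and, in the last panel, the log2 level of the 3′ beta-actin control probe set minus that of the 5′ one; inactivated baculovirus arrays are on the left, PBS arrays on the right, lines are group means and numbers are replicates. The groups overlap in every panel, and PBS replicate 4 stands at -1.58 in the choroid plexus panel.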

How the data were processed

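The authors deposited linear intensities for 8 arrays, read with GCOS per the submitters' processing notes. No source used here gives their algorithm, the design text also names GC-RMA and GeneSpring, and GeneSpring values were not supplied per the labels. Of 31099 probe sets, 57 controls were left out, 20826 had 1 symbol, 436 several and 9780 none. Symbols of all 17 probe sets matched the RefSeq table through the gene number. Array medians of log2(intensity + 16) lay between 5.74 and 5.85, under a limit of 0.2 for their span, so no normalization was added. Fold changes on this scale understate changes of dim probe sets, and the number of arrays limits precision. The 60% of probe sets with the highest means, above the 40th percentile, were fitted in limma 3.58.1 (R 4.3.3, no block, two-sided, with a variance trend), and p-values were adjusted by Benjamini-Hochberg over these 18625. No column was left unmapped.

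The members, lists and tests were chosen with earlier results of these data known. All members were named, with the 3 genes of smallest p in the 4 gene lists around them. Rxrg, Rxrb, Drd1, Drd2, Neurod1, Cx3cr1, P2ry12, Vtn, Slc5a7, Chat and Slc18a3 were singled out after their values had been seen. The limma fit on the difference between probe sets of a gene, over all pairs and without a variance trend, was added after the data had been seen. The fits were also run on simulated data with independent noise for each array. That setting cannot show how they behave where arrays share an animal. Correlations over arrays are descriptions.

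Replicate numbers occur in both groups. Over all tested probe sets, deviations of same-numbered arrays from their group means correlated at -0.01, 0.02, 0.01 and -0.00302, and the numbers were not taken as pairs. The levels of the thalamic and projection neuron effector lists did vary alike with the replicate number in both groups, while that of the microglial list did not. Whether same-numbered arrays share an animal or a dissection is not given in the labels and was not tested. Alternatives were leaving out each array in turn, a replicate block, the methods' t-test, pseudocounts of 1 and 64, median centring or quantile normalization, no variance trend, other level filters (none, or the 60th percentile) and averaging the probe sets of a gene.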

Additional observations from a re-analysis of the deposited data

Results flagged for a closer look

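In a group of 4 arrays, 1 array stood apart from the other 3 for 2 of the 24 combinations of a tested probe set and a group. For the Bcl11b probe set 1391948_at, baculovirus replicate 3 was at an intensity of 224, against 186 to 192 on the other baculovirus arrays, with a gap of 0.845 of the group's range. For the Ebf1 probe set 1382212_at, PBS replicate 4 was at 49.0, against 56.9 to 58.6 on the other PBS arrays, with a gap of 0.833 of the range. Both gaps are just past Dixon's limit, which chance passes in about 1 of 20 groups. The other tested probe set of each gene did not show the same array apart.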

How the results depend on the processing

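Under an adjusted p of 0.05 there were 0 probe sets in any of the 18 alternatives run, over all tested probe sets or among the 12 of these genes. With the replicate number as a block 0 passed and 1172 had an unadjusted p under 0.05, against 1254 without it, and the paired fit changed no call. The methods' t-test gave 1251 at an unadjusted p under 0.05, 0 after Benjamini-Hochberg adjustment and 0 with a 2-fold change as well. Both Bcl11b probe sets, Meis2, Foxp2 and Isl1 kept a lower mean under every alternative that tested them. Their log2 fold changes with an array left out ran from -0.47 to -0.30 (1384944_at), -0.37 to -0.18 (1391948_at), -0.35 to -0.23, -0.24 to -0.14 and -0.25 to -0.05. The difference in mean level ran from -0.22 to -0.11 with an array left out and from -0.18 to -0.12 otherwise. Directions turned only where the value was near 0. With an array left out, Foxp1 ran from -0.0887 to 0.0209 for 1390885_at, -0.0192 to 0.0908 for 1380544_at, -0.0147 to 0.18 for 1373804_at and -0.00250 to 0.0743 for 1379651_at, Rarb from -0.16 to 0.0226, and Ebf1 from -0.0631 to 0.0346 for 1382212_at and -0.00879 to 0.11 for 1368949_at. With the mean of a gene's tested probe sets, Foxp1 turned to 0.0313 and Ebf1 to 0.0111. Isl1 and both Ebf1 probe sets were below the filter at the 60th percentile, so no mean level was computed there. Signal limits Six3 and 4 other probe sets, which lay below the filter.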
